A study of Mus musculus with 12 samples.

Results

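The genes described here are 44 genes of the transforming growth factor β (TGF-β) and bone morphogenetic protein (BMP) pathway in mouse glomeruli, the filtering tufts of the kidney, in Alport syndrome (AS). They were taken by gene symbol, from a list of pathway genes, out of 27592 genes listed for male and 26048 for female libraries, and all 44 were found in both. They comprise 9 ligands, 12 receptors and co-receptors, 8 SMADs, 5 latent binding proteins and proteases, 4 inhibitors and 6 target genes. Ltbp2 was too low to be tested in either sex, and Fst and Grem1 were too low in females, which left 43 members tested in males, 41 in females and 43 for the difference between the sexes.

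Glomeruli were isolated by collagenase digestion and sieving, and polyA RNA was sequenced. The AS mice are of the strain B6.Cg-Col4a5 tm1Yseg/J and the WT mice of the strain C57BL/6J. The male AS mice (mAS) carry Col4a5-/-, a null allele of the X-linked gene for the α5 chain of type IV collagen, and were compared with male WT mice (mWT). The female AS mice (fASht) are Col4a5+/- heterozygotes, in which X inactivation leaves a mosaic of cells with and without the chain, and were compared with female WT mice (fWT). The labels give an age of 3.5 months for all 4 groups, and the supplement of the study gives 4 months for the males. Each group has 3 samples, but the third female WT sample repeats the first in every value, so it was counted once and 11 distinct libraries remained, 3 mAS, 3 mWT, 3 fASht and 2 fWT. The unit throughout is the TMM-normalized count, a count of reads per gene scaled between libraries by the trimmed mean of M-values.

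TGF-β ligands are secreted bound to latent binding proteins that tether them to the matrix, and are released as active dimers. A dimer assembles type II and type I receptors, the type I receptor phosphorylates a receptor SMAD (Smad2 and Smad3 for TGF-β and activins, Smad1, Smad5 and Smad9 for BMPs), and this enters the nucleus with Smad4 to drive target genes. Smad6 and Smad7 are made in response and inhibit the receptors. In the glomerulus the pathway is known for mesangial matrix production and scarring, and for Eng and Acvrl1, its endothelial receptors.

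The study asked whether predicted targets of the microRNA miR-93-5p changed in AS glomeruli, and Tgfbr2 is one of them, so the sequence of the microRNA and its matches among the members are shown first. The mature mouse sequence from RefSeq lies on chromosome 5 of GRCm38.p6 from 138165574 to 138165596 on the minus strand, and capitals mark bases 2 to 8, the seed.
mmu-miR-93-5p: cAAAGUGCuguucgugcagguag
The DNA word that pairs with this seed is GCACTTT, searched on the sense strand of the principal 3′ UTR of each gene in GENCODE M21. It was present in 9 of the 44 members (20.5%) and in 11.1% of 20745 protein-coding genes with a 3′ UTR. The median 3′ UTR was 3964 bases in the 9 members with a match and 1249 bases in the other 35, so the 2 sets also differ in length. The 3′ UTR length of the members was not compared with that of all genes, so the shares of 20.5% and 11.1% are not matched for length. The matches of 3 members that passed a test below are as follows, with the word in capitals, each 29 bases read along the RNA.
Tgfbr2, chromosome 9, word at 116090074 to 116090080, minus strand: caataacgtttGCACTTTattaatgcctg
Bmpr2, chromosome 1, word at 59870686 to 59870692, plus strand: ttttaagttttGCACTTTtgtttagtctt
Bmpr2, chromosome 1, word at 59874362 to 59874368, plus strand: ggtatcacactGCACTTTtactctgttag
Smad5, chromosome 13, word at 56738256 to 56738262, plus strand: cttttcattttGCACTTTtatgggtgact
Smad2, which passed the test of the difference between the sexes, holds the word 2 times, and Id4, Skil, Smad6, Bambi and Smad7 hold it as well. Of the 34 tested members without a match 8 were higher and 3 lower in mAS. Of the 9 members with a match, 1 passed the male test, Tgfbr2, which was higher in mAS. Their log2 fold changes ran from -0.36 to 0.69 in males (median 0.31, against 0.33 for the 34 tested members without a match) and from -0.69 to 0.23 in females (median -0.33, against -0.21 for 32). The microRNA itself is not measured by these libraries.

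Col4a5 transcript was 726.5, 674 and 571.5 in mAS, against 1209, 1854.5 and 1426 in mWT, and 1187, 1210 and 1329.5 in fASht, against 2329 and 1751.5 in fWT. It was lower in each AS library but not at 0 under the null allele. Before any pathway gene is compared, the cell types in the libraries have to be described, since their marker sums differed between the groups. Podocyte, glomerular endothelial and mesangial markers were all present in every group, none of them at 0, as glomeruli should show. Proximal tubule cells lie outside the glomerulus, and the summed count of their 20 markers was 51095 to 124760 in the mAS libraries, against 328990 to 547440 in the mWT libraries. All 20 were lower in mAS past the test, with a median log2 fold change of -2.33. The podocyte sum was 381820 to 479240 in mAS, against 176370 to 270480 in mWT, and 10 of 15 podocyte markers were higher. The glomerular endothelial sum was 229500 to 325900 in mAS, against 111840 to 210360 in mWT, with 10 of 15 markers higher. Of 10 mesangial markers 2 were higher and 1 was lower. No member of these 4 lists passed the test in females, where few of all genes did. All 10 mesangial markers were nonetheless below 0 there (median log2 fold change -0.44), with a sum of 29844 to 40355 in fASht, against 41874 and 52654 in fWT, as were 14 of 15 endothelial markers (median -0.33) and 13 of 15 podocyte markers (median -0.22). The female proximal tubule sum was 174290 to 231430 in fASht, against 162070 and 322950 in fWT. Of 12 distal nephron and collecting duct markers 6 were lower in mAS, with a sum of 24875 to 85362, against 67234 to 110242 in mWT. In females 3 of these 12 were higher, with a sum of 66467 to 89426 in fASht, against 24432 and 40050 in fWT. The first fWT library had the highest endothelial and mesangial sums of the 5 female libraries. In bulk RNA fewer cells of a type and less RNA per cell cannot be told apart.

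**Figure D1:**
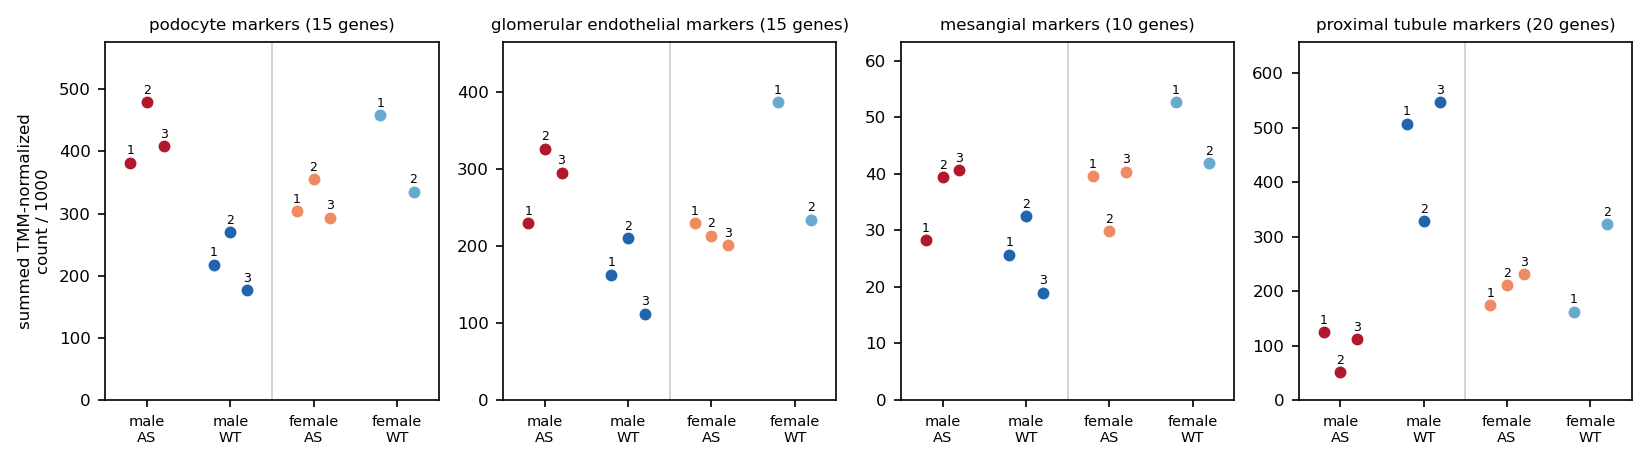
Summed TMM-normalized count (y axis in units of 1000) of the markers of 4 cell types in each library, with male AS, male WT, female AS and female WT along the x axis and the replicate number beside each point. The 3 male AS libraries lie below the 3 male WT libraries for proximal tubule markers (51095 to 124760, against 328990 to 547440) and above them for podocyte and endothelial markers.

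Per kilobase of exon, the members spanned a wide range. The highest was Ccn2, which encodes connective tissue growth factor, a secreted matrix protein, at 9210 TMM-normalized counts per kb in mAS and 2434 in mWT, with 5372 in fASht and 7139 in fWT. Eng, which encodes endoglin, the TGF-β co-receptor of endothelial cells, was the highest receptor gene in each group, at 4085 per kb in mAS, 2145 in mWT, 3315 in fASht and 4170 in fWT. Bmp6 was the highest ligand gene (356 per kb in mAS and 320 in mWT), Smad6 the highest SMAD gene (442 in mAS and 341 in mWT) and Ltbp4 the highest of the latent binding proteins (526 in mAS and 383 in mWT), and these ranks were the same in both female groups. Ltbp2 was the lowest of its role at 0.70 per kb in mAS and 0.49 in mWT, and Inhba, which encodes an activin subunit, was the lowest ligand gene at 1.88 in mAS and 2.44 in mWT. Male and female tables may have been scaled apart, so levels are compared within a sex.

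**Figure D2:**
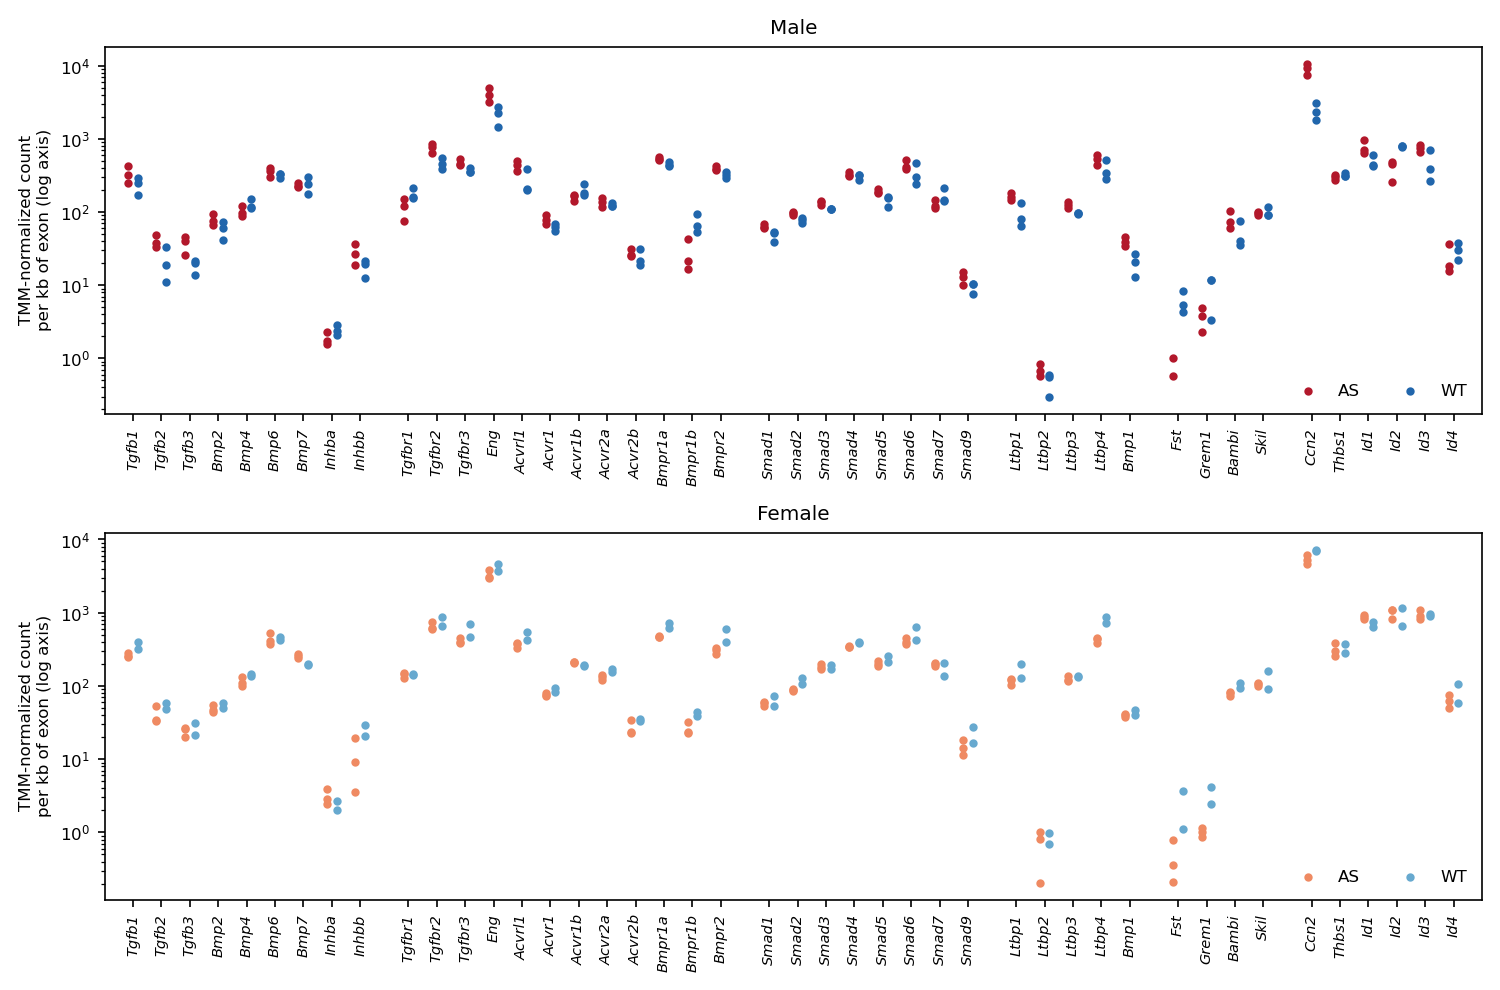
TMM-normalized count per kb of exon (log axis) of the 44 members in every library, in males above and females below, ordered as ligands, receptors, SMADs, latent binding proteins and proteases, inhibitors and targets, with AS to the left of WT for each gene; values of 0, such as Fst in 1 mAS library, cannot be drawn. Ccn2 and Eng stand highest, at 9210 and 4085 per kb in mAS, and Ltbp2, Fst, Inhba and Grem1 lowest.

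In males, 9 of 43 members (20.9%) were higher in mAS than in mWT past the test, limma with Benjamini-Hochberg adjustment over 15881 genes at an adjusted p of 0.05, and 3 (6.98%) were lower. One of the 3, Fst, reached the level needed for a test, 0.5 counts per 1e6 of the column total (CPM) in 3 libraries, through mWT alone, and leaving it aside 2 of 42 were lower. Of all genes tested, 16.6% were higher and 18.9% lower. The members higher were Tgfb3, Tgfbr2, Eng, Acvrl1, Ltbp1, Ltbp3, Bmp1, Ccn2 and Id1, and those lower were Bmpr1b, Fst and Id2. The median log2 fold change was 0.33 over the members and 0.00 over all genes. The 3 mAS libraries all lay above the 3 mWT libraries in 17 members (39.5%, against 26% of all genes) and below them in 4 (9.30%, against 27.2%). These counts moved with the scaling. With equal column totals 28 members were higher and 2 lower, against 33.3% and 8.94% of all genes. With the libraries centred on endothelial markers 1 member was higher and 12 were lower, against 0.321% and 43.3% of all genes. With podocyte markers 1 was higher and 25 were lower, against 0.756% and 73.6%, while the median of all genes moved to -0.82 and -0.91. Centring shifts every gene alike, so the median of the members stayed 0.32 above that of all genes.

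**Figure D3:**
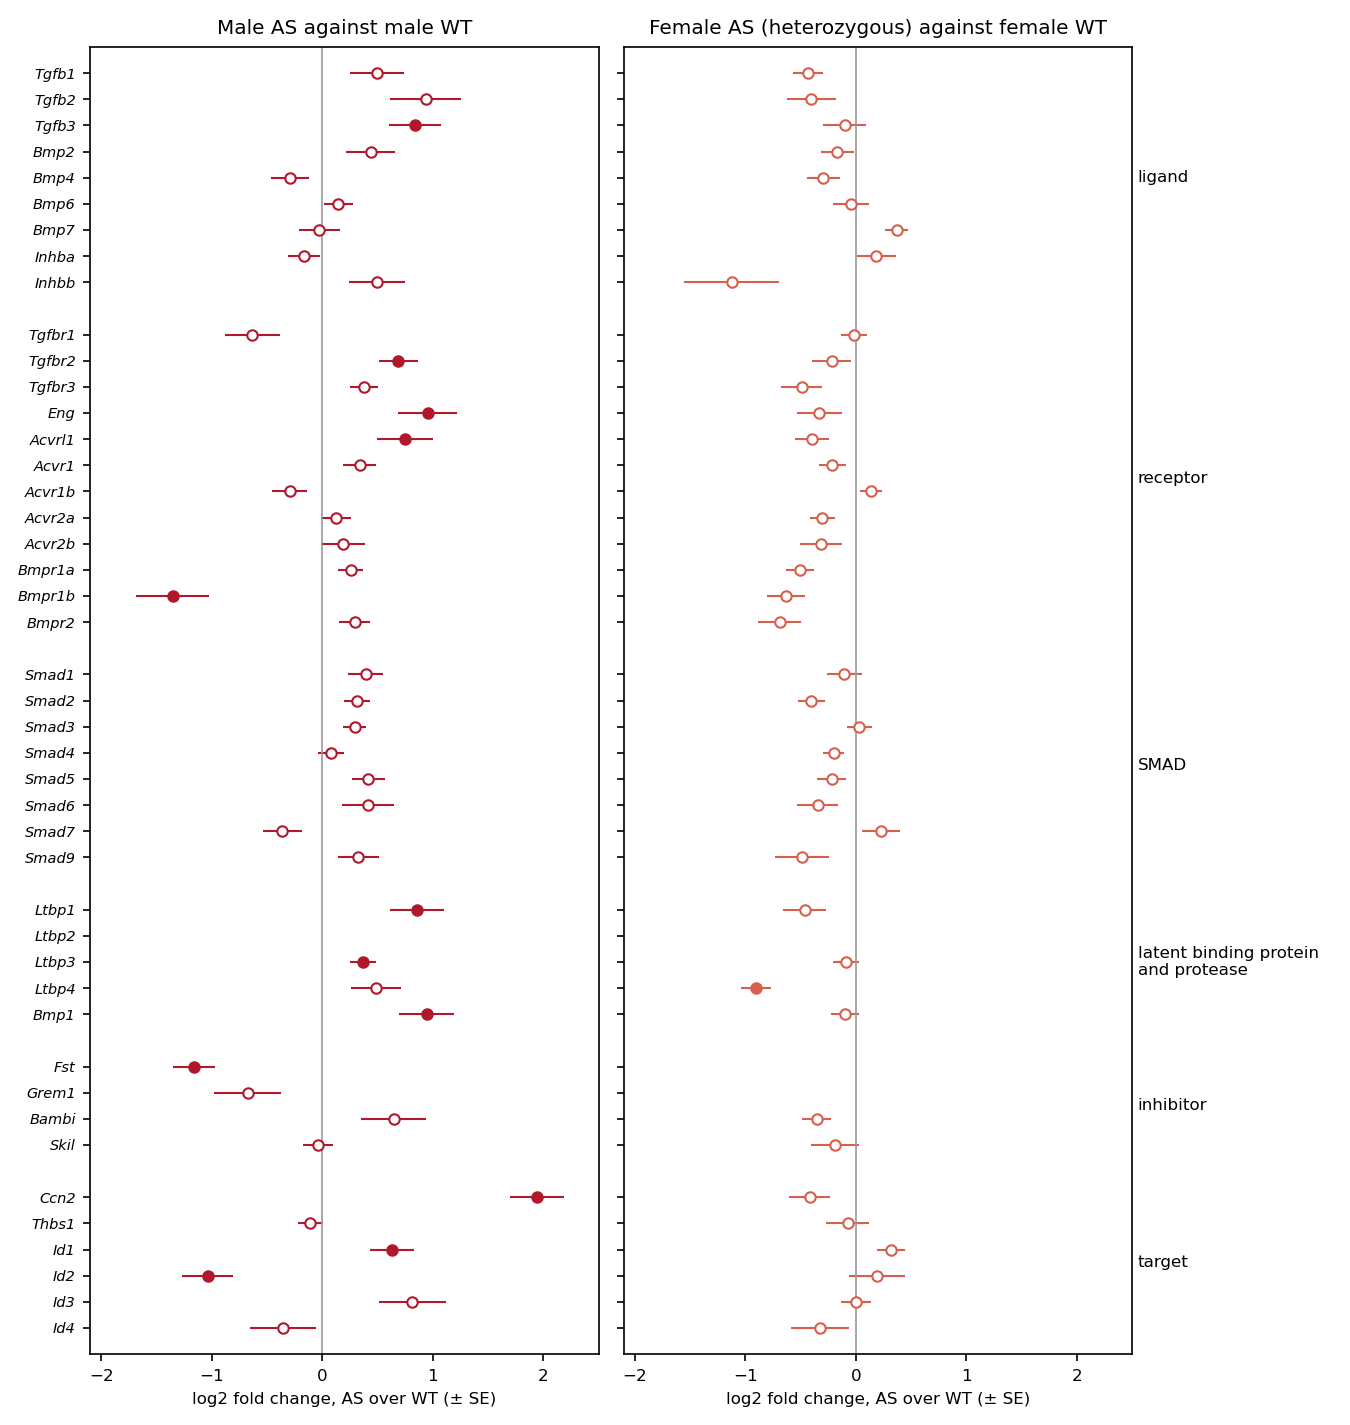
Log2 fold change of AS over WT with its standard error for each member, by role, in males (left) and heterozygous females (right); filled points passed the test. In males 30 of 43 members lie above 0 (50.1% of all genes) and in females 33 of 41 lie below it (51.3% of all genes); centring on endothelial or podocyte markers shifts all genes alike and turns the male median to -0.49 or -0.59 and the female median to 0.12 or 0.03.

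Among the ligands, 1 of 9 passed in males. Tgfb3, which encodes the third TGF-β isoform, had 86.7, 138 and 154 TMM-normalized counts in the mAS libraries, against 67.6, 72.7 and 46.1 in the mWT libraries. Every mAS library was higher than every mWT library, with a log2 fold change of 0.84 (SE 0.23, adjusted p = 0.0285 from limma), and this was 0.02 with centring on endothelial markers and -0.08 with podocyte markers. The gene lies on chromosome 12 of GRCm38 from 86056745 to 86079041. Bmp6, a BMP best known for the control of hepcidin and iron, was the highest ligand gene per kb in each group, with TMM-normalized counts of 1185, 1562 and 1418 in mAS, against 1306, 1149 and 1288 in mWT. These groups overlapped (log2 fold change 0.15, SE 0.13, adjusted p = 0.420 from limma). The other 7 ligand genes did not pass in males, with log2 fold changes from -0.29 for Bmp4 to 0.94 for Tgfb2, and the median of the 9 was 0.44, with -0.39 and -0.48 under the 2 centrings. Tgfb2 had the larger fold change but also the larger spread, with 190.5 in the mWT library of replicate 2 and 109.5 and 64.2 in the other two (adjusted p = 0.0542 from limma). Tgfb1, the isoform most studied in kidney fibrosis, had 1263, 2139 and 1648 in mAS, against 1462, 1255 and 854 in mWT, and the groups overlapped (log2 fold change 0.50, SE 0.24, adjusted p = 0.145 from limma). Tgfb1 and Tgfb2 were picked out after their values were seen.

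Among the receptors, 3 of 12 were higher in mAS, 1 was lower and 8 did not pass, with a median log2 fold change of 0.27 that was -0.55 and -0.64 with centring on endothelial and podocyte markers. Tgfbr2 (chromosome 9, 116084293 to 116175360), the type II receptor that binds TGF-β, had 5203, 7033 and 6283 in mAS, against 3782, 4560 and 3169 in mWT. The groups did not overlap (log2 fold change 0.69, SE 0.18, adjusted p = 0.0230 from limma), and the value was -0.13 with centring on endothelial and -0.22 on podocyte markers. Eng (chromosome 2, 32646595 to 32682669) had 13159, 20081 and 16363 in mAS, against 9096, 11032 and 5926 in mWT. Each mAS library was again above each mWT library, with a log2 fold change of 0.95 (SE 0.27, adjusted p = 0.0282 from limma) and of 0.13 and 0.04 with centring on endothelial and podocyte markers. Acvrl1 (chromosome 15, 101128522 to 101145336) encodes ALK1, the type I receptor that acts with endoglin in endothelial cells. It had 1554, 2139 and 1858 in mAS, against 890.5, 1643 and 869 in mWT, so the mWT library of replicate 2 lay above the lowest mAS library. Its log2 fold change of 0.75 (SE 0.25, adjusted p = 0.0499 from limma) was at the edge of the threshold, and it was -0.07 and -0.16 with the 2 centrings.

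The receptor that fell was Bmpr1b, a type I BMP receptor (chromosome 3, 141837136 to 142169425). It had 259.5, 99.2 and 128 in mAS, against 389, 321 and 554 in mWT, with no overlap (log2 fold change -1.35, SE 0.33, adjusted p = 0.0186 from limma). Centring lowers every male value alike, here to -2.18 and -2.27, and the value was 0.35 (SE 0.56) when proximal tubule content was a covariate. Tgfbr1, the type I partner of Tgfbr2, also had its 3 mAS libraries below the 3 mWT libraries, at 996, 498 and 785.5, against 1032, 1048 and 1386, but did not pass (log2 fold change -0.63, SE 0.25, adjusted p = 0.0774 from limma). Tgfbr3, which encodes betaglycan, the co-receptor that presents TGF-β to its receptors, missed the threshold narrowly, with 2924, 3463 and 3014 in mAS, against 2296, 2647 and 2288 in mWT (log2 fold change 0.38, SE 0.13, adjusted p = 0.0503 from limma). The BMP receptor genes Bmpr1a and Bmpr2 did not pass in males but took part in the difference between the sexes below. Bmpr1a had 3316, 3428 and 3589 in mAS, against 2743, 3129 and 2790 in mWT (log2 fold change 0.25, adjusted p = 0.118 from limma). Bmpr2 had 6824, 6934 and 7741 in mAS, against 6425, 5827 and 5315 in mWT (log2 fold change 0.29, adjusted p = 0.132 from limma). The activin receptor genes Acvr1, Acvr1b, Acvr2a and Acvr2b had log2 fold changes from -0.30 to 0.34 and none passed.

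The 300 bases around the start of Eng are shown as the highest receptor gene among those that passed. The promoter table of RefSeq gives 250 bases before to 50 after each start on GRCm38.p6 and had entries for 29 of the 44 members, 37 starts in all; Ccn2, Tgfb3, Acvrl1, Bmp1, Fst and Id1 are among those with none. CAGAC, the box that SMAD3 and SMAD4 bind, was searched on both strands (GTCTG on the other), as was GGCGCC, a GC-rich word also bound by SMADs, which does not overlap the first. CAGAC was in 16 of the 37 member promoters (43.2%), against 49.6% of 32851 promoters of all genes. GGCGCC was in 12 of the 37 (32.4%), against 11.9% of all promoters. Overlapping starts of Ltbp4, and of Smad5, hold the same site, which is counted for each start. The word holds only G and C, and the GC content of the promoters was not compared. Capitals mark CAGAC on either strand.
Eng, chr2:32646345-32646644, plus strand: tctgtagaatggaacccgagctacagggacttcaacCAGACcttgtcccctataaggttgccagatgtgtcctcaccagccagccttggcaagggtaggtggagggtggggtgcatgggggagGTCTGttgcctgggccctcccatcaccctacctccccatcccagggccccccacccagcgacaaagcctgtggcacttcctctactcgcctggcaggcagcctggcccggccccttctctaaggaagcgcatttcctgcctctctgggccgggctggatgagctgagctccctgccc

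None of the 8 SMAD genes passed in males, although 7 of their 8 log2 fold changes were above 0, as were 50.1% of all genes (median 0.32, and -0.50 and -0.59 with centring on endothelial and podocyte markers). Smad2, a receptor SMAD of the TGF-β branch, had 801, 889 and 848 in mAS, against 624, 720.5 and 690 in mWT (log2 fold change 0.31, SE 0.11, adjusted p = 0.0630 from limma). Smad5, of the BMP branch (chromosome 13, 56703010 to 56742377), had 1345, 1382 and 1549 in mAS, against 873, 1159 and 1179 in mWT (log2 fold change 0.42, SE 0.15, adjusted p = 0.0573 from limma). In both the groups did not overlap, and the same held for Smad1 and Smad3. Smad3 was the tightest in mWT, at 606, 605 and 610, against 701, 778 and 764 in mAS. Smad7, the inhibitor of TGF-β receptors, was the SMAD gene below 0, with a log2 fold change of -0.36 (adjusted p = 0.143 from limma), while Smad6, the inhibitor of BMP signals, had 0.41 (adjusted p = 0.201 from limma), and Smad4, the common partner, 0.08.

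Of the latent binding proteins and proteases, 3 of the 4 tested genes were higher in mAS and the median log2 fold change was 0.67, with -0.15 and -0.24 under the endothelial and podocyte centring. Ltbp1 (chromosome 17, 75005568 to 75392512), which binds latent TGF-β and anchors it in the matrix, had 1544, 1947 and 1728 in mAS, against 873, 1419 and 687 in mWT. The mAS libraries were all higher (log2 fold change 0.86, SE 0.25, adjusted p = 0.0311 from limma), with 0.04 and -0.06 under the endothelial and podocyte centring. Ltbp3 (chromosome 19, 5740904 to 5758532), which also binds latent TGF-β, had 1144, 1267 and 1023 in mAS, against 891.5, 895 and 848 in mWT. Its fold change was small and its spread smaller (log2 fold change 0.37, SE 0.12, adjusted p = 0.0430 from limma), and it was -0.45 and -0.54 under those centrings. It was not past the test with any 1 of the 6 male libraries left out. Bmp1 (chromosome 14, 70474558 to 70520234) encodes a metalloprotease that matures procollagens and frees TGF-β from latent complexes, and is not a BMP ligand. It had 304, 400 and 342 in mAS, against 184.5, 238 and 114 in mWT, again without overlap (log2 fold change 0.94, SE 0.25, adjusted p = 0.0227 from limma), with 0.12 and 0.03 under the centrings. Ltbp4 had 2830, 3874 and 3486 in mAS, against 2210, 3353 and 1865 in mWT, which overlapped (log2 fold change 0.49, adjusted p = 0.126 from limma). Ltbp2, not tested, had 4.65 to 6.96 in mAS and 2.42 to 4.92 in mWT.

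Among the inhibitors 1 of 4 passed in males. Fst, which encodes follistatin, a secreted protein that traps activins, was near 0 in mAS, with 4.65, 0 and 2.61, against 24.6, 19.6 and 38.8 in mWT. All 3 mAS libraries lay under the 8.78 TMM-normalized counts that the filter stands for and all 3 mWT libraries above it, so a gene that entered through mWT alone had to differ, and its call is no support. Without any 1 of the mWT libraries it was not tested. Its log2 fold change was -1.16 with the pseudocount of 17.6 counts (1 CPM) and -2.25 with 0.25 CPM. Skil, which encodes the SMAD co-repressor SnoN, had the highest mean count of the inhibitor genes, with 945, 890 and 965 in mAS, against 877, 1136 and 880 in mWT (log2 fold change -0.04, adjusted p = 0.848 from limma). Grem1, a BMP antagonist, and Bambi, a pseudoreceptor, did not pass (log2 fold changes -0.68 and 0.64, adjusted p = 0.115 and 0.119 from limma).

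Of the 6 target genes 2 were higher, 1 was lower and 3 did not pass. With the libraries as deposited and the pseudocount of 1 CPM, the largest log2 fold change of a member in males was in a target gene. Ccn2 (chromosome 10, 24595442 to 24598683) had 21784, 30735 and 26528 in mAS, against 6718, 9015 and 5155 in mWT. The groups were far apart, and the mean of mAS was 3.78 times that of mWT (log2 fold change 1.94, SE 0.24, adjusted p = 0.00421 from limma). Ccn2 was the member that stayed higher past the test with centring on endothelial markers (1.12, SE 0.34, adjusted p = 0.0125 from limma) and on podocyte markers (1.03, SE 0.22, adjusted p = 0.00249 from limma), and without each male library in turn (1.74 to 2.15). With proximal tubule content as a covariate it was 0.87 (SE 0.46, adjusted p = 0.985 from limma) and did not pass. Ccn2 is expressed by podocytes, mesangial and endothelial cells, and which of them changed cannot be told from these libraries.

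Of the Id genes, which encode inhibitors of differentiation that BMP signals induce, Id1 was higher and Id2 lower in mAS. Id1 (chromosome 2, 152736251 to 152737410) had 740.5, 1132 and 819.5 in mAS, against 512, 707 and 492 in mWT, with no overlap (log2 fold change 0.63, SE 0.20, adjusted p = 0.0415 from limma), and -0.19 and -0.28 with the centrings. Id2 (chromosome 12, 25093799 to 25097140) had 1111, 626 and 1187 in mAS, against 1916, 1963 and 1964 in mWT. The 3 mWT libraries were close to each other and above all mAS libraries (log2 fold change -1.04, SE 0.23, adjusted p = 0.0132 from limma), and the value was 0.17 (SE 0.37) when proximal tubule content was a covariate. Id3 had the same sign as Id1 but 1259 in the mWT library of replicate 2, within the range of 1180 to 1498 of mAS (log2 fold change 0.81, SE 0.31, adjusted p = 0.0697 from limma). Id4 and Thbs1, which encodes a matrix protein that activates latent TGF-β, did not pass (log2 fold changes -0.35 and -0.11). The start of Id2 is shown because it is the target gene that fell and has a GGCGCC match, in capitals.
Id2, chr12:25096043-25096342, minus strand: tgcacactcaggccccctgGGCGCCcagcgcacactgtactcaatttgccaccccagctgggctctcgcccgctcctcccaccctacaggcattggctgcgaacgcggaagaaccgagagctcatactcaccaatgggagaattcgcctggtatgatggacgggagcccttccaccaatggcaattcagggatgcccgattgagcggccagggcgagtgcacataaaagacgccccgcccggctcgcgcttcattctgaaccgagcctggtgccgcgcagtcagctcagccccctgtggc

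**Figure D4:**
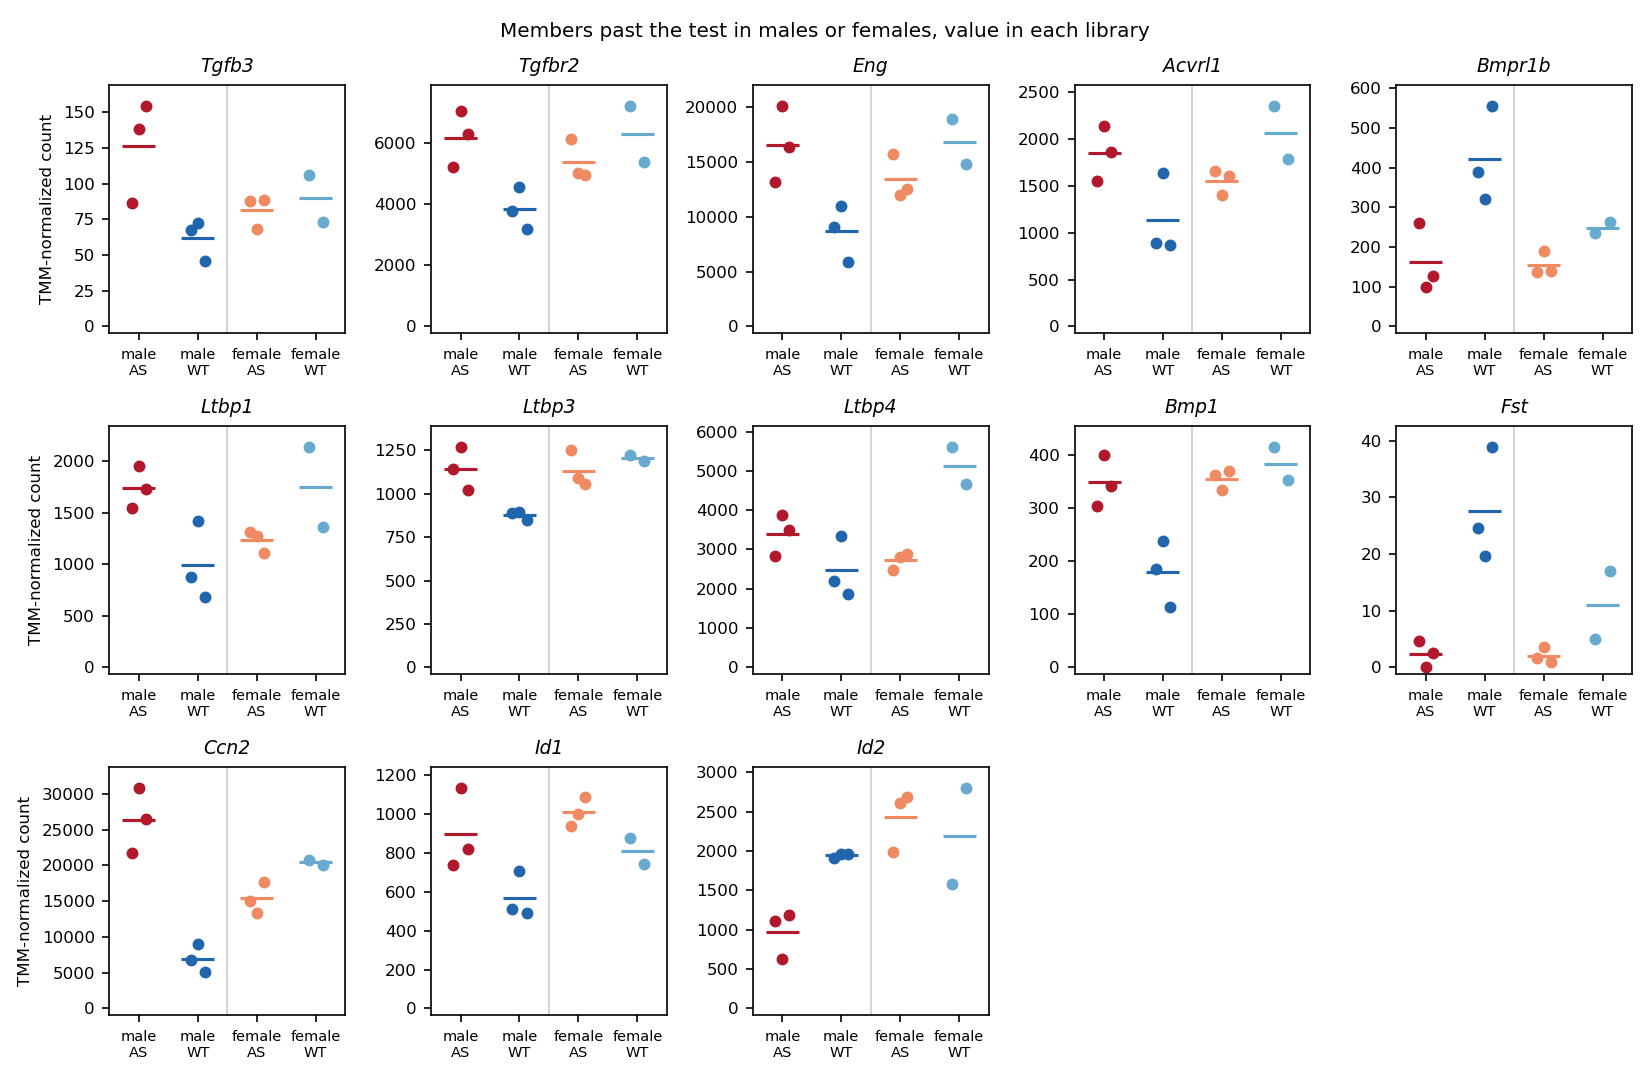
TMM-normalized count of each member past the test in males or females, in every library (points) with the group mean (line), for male AS, male WT, female AS and female WT. Ccn2 shows the widest gap in males (21784 to 30735 in mAS, against 5155 to 9015 in mWT), and the mWT library of replicate 2 is the middle point of its group and the highest mWT value for all 9 genes that were higher in mAS. Over all 44 members, most of them not drawn here, that library was the highest of its group in 22 and the lowest in 12.

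The libraries themselves varied along the same lines. The mWT library of replicate 2 had the lowest proximal tubule sum of the mWT libraries (328990) and the highest podocyte and endothelial sums (270480 and 210360), and it also had the highest mWT value of all 9 members that were higher in mAS. The mAS library of replicate 2 had the lowest proximal tubule sum (51095) and the highest value for 8 of those 9. Over all 44 members, mWT replicate 2 was the highest of its group in 22 and the lowest in 12. Over the same members mAS replicate 2 was the highest in 18, as was mAS replicate 3, and the lowest in 12. When the mean log2 of the proximal tubule markers was added as a covariate, 0 members and 0 of all 15881 genes passed (limma). Genotype and tubule content then take nearly the same direction in 6 libraries. The count of 12 members past the test was 1, a higher one, without mWT replicate 1, against 9.2% higher and 10.1% lower of all genes. It was 3 without mWT replicate 3 (2 higher, 1 lower), against 8.6% and 9.09%. Without mAS replicate 2 it was 4 (1 and 3), against 8% and 11.4%. Without mAS replicate 3 it was 3 (1 and 2), against 6.48% and 9.66%.

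**Figure D5:**
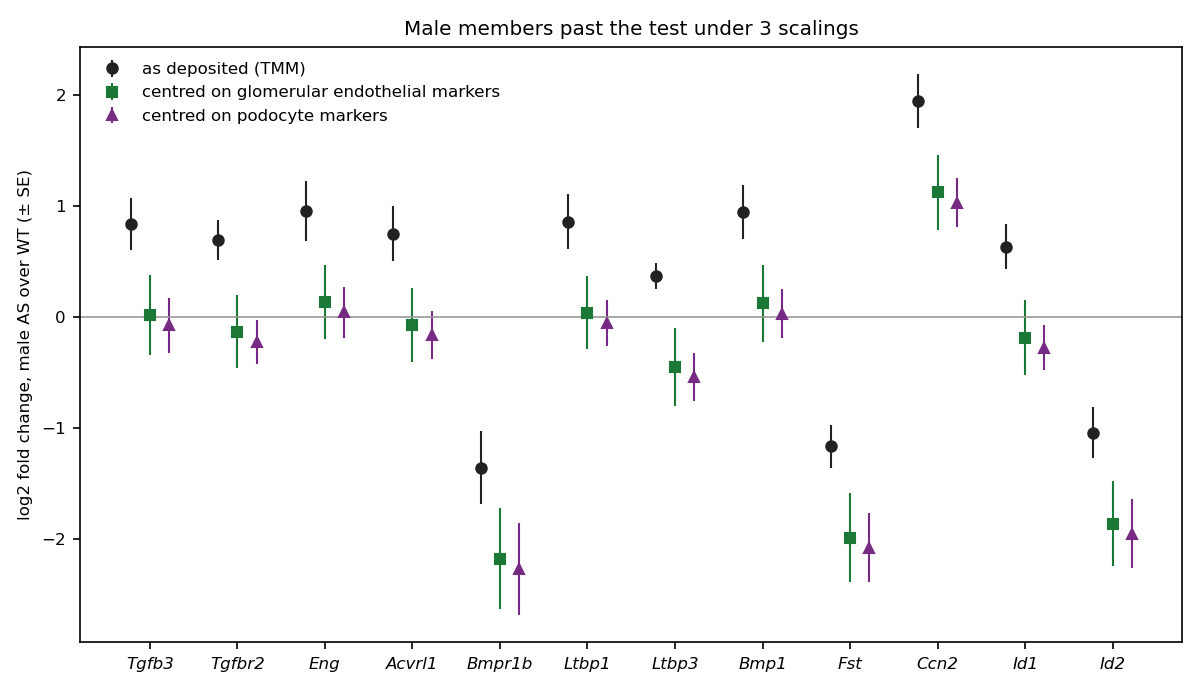
Log2 fold change of male AS over male WT with its standard error for the 12 members past the test, with the libraries as deposited, centred on glomerular endothelial markers or centred on podocyte markers. Centring moves every gene down alike, so Bmpr1b, Fst and Id2 could not leave the side below 0. Ccn2 lies above 0 under all 3, while Tgfbr2, Acvrl1, Ltbp3 and Id1 cross 0 with both centrings and Tgfb3 and Ltbp1 with podocyte markers.

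The other genes of the pathway were a list of 107 further ligands, receptors, regulators and targets. Of 79 tested in males, 22 were higher and 19 lower, with a median log2 fold change of 0.00, beside the 16.6% and 18.9% of all genes given above. Of these, Bmp8a reached the filter through mWT alone and Col1a1 through mAS alone, and among the 75 that did not enter through 1 group 21 were higher and 18 lower. The split of the 79 was 32 higher and 11 lower with equal column totals, 2 and 35 with centring on endothelial markers, and 4 and 48 with centring on podocyte markers, settings whose shares of all genes stand beside the members' counts. Of 7 further ligand genes 4 were lower, namely Gdf15, Gdf5 and Bmp3 (log2 fold changes -2.09, -1.17 and -1.14) and Bmp8a, which averaged 2.97 in mAS and 17.9 in mWT and had to differ to be tested, and none was higher. Gdf15, a stress-induced ligand, averaged 34.3 in mAS and 178 in mWT. Of 2 further receptor or co-receptor genes Rgmb, a BMP co-receptor, was higher (0.59). Of 26 extracellular regulators 8 were higher and 5 lower, and the 4 that moved most were Itgb6, the integrin subunit of αvβ6 that activates latent TGF-β (-1.77), Tsku, a secreted protein that binds BMPs (-1.63), Bmper, a secreted BMP regulator (1.53), and Lrg1, a secreted modulator of endothelial TGF-β signals (-1.32). Of 19 intracellular regulators 2 were higher and 3 lower, among them the ubiquitin ligase genes Nedd4l (-1.11), Wwp1 (-1.07) and Smurf1 (0.55), and Tgif1 (-0.88), a co-repressor gene.

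Of 25 further target genes tested in males, 11 were higher and 7 lower. Col1a2, a chain of type I collagen, averaged 8000 in mAS and 1939 in mWT (log2 fold change 2.07, SE 0.24, adjusted p = 0.00392 from limma). Tagln, an actin-binding protein of contractile cells, averaged 1256 in mAS and 308 in mWT (1.97), and Loxl2, a collagen crosslinking enzyme, 4392 in mAS and 1432 in mWT (1.61). Nox4, an oxidase abundant in proximal tubule, fell to 1225 in mAS, against 4780 in mWT (-1.98). Col1a2 is also a fibroblast marker and Tagln a smooth muscle marker. Of 5 fibroblast markers tested 3 were higher in mAS and 2 had a log2 fold change below 0. Col1a1, among the 3, reached the filter through mAS alone, so its call is no support. The fibroblast sum was 7744 to 10671 in mAS, against 2243 to 4091 in mWT, and Col1a2 made up most of it. Of 7 smooth muscle and renin cell markers 3 were higher and 2 lower.

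In heterozygous females, in which X-linked AS is usually milder, 1 of 41 members passed, and it was lower. Of all 15803 genes tested 1.06% were higher and 0.348% lower. Ltbp4 (chromosome 7, 27305136 to 27337692), a latent binding protein that also organizes elastic fibers, had 2472, 2817 and 2886 in fASht, against 5593 and 4664 in fWT. The groups were far apart (log2 fold change -0.91, SE 0.14, adjusted p = 0.0404 from limma), but the call held without 1 of the 5 female libraries, fWT replicate 2, and was lost without each of the other 4, where the log2 fold change was between -1.04 and -0.775 over all 5 fits. It was -0.57 (adjusted p = 0.207 from limma) with centring on endothelial and -0.66 (adjusted p = 0.113 from limma) on podocyte markers. At an unadjusted p under 0.05, 2 members were higher and 12 lower (4.88% and 29.3%), against 11.4% and 10.4% of all genes. The fASht libraries all lay above the fWT libraries in 3 members (7.32%, against 19.1% of all genes) and below them in 16 (39.0%, against 21.3%). The same held, below, for 6 of 10 mesangial, 7 of 15 endothelial and 3 of 15 podocyte markers, whose part in the members' values was not tested. The median log2 fold change of the members was -0.22 and that of all genes -0.01. Centring on endothelial or podocyte markers turned the median of the members to 0.12 and 0.03 and that of all genes to 0.33 and 0.24, so the members stayed 0.21 below all genes. The headers of the deposited values carry the code SE5411 for fWT and SE6183 for fASht, and none for the male libraries. Nothing in the labels says what this code stands for. In females the code and the genotype cannot be told apart.

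By role, 11 of 12 receptor genes had a negative log2 fold change in females, as did 51.3% of all genes, 14 of 15 endothelial and 10 of 10 mesangial markers, with a median of -0.32 that was 0.01 and -0.08 with centring on endothelial and podocyte markers. Bmpr2 had 5632, 5852 and 4858 in fASht, against 10625 and 7241 in fWT (log2 fold change -0.69, SE 0.19, adjusted p = 0.112 from limma). Bmpr1a had 2924, 3085 and 2930 in fASht, against 4638 and 3880 in fWT (-0.51, SE 0.12, adjusted p = 0.0891 from limma), and Bmpr1b 137, 190 and 140, against 235 and 263 (-0.63, SE 0.17, adjusted p = 0.108 from limma). None of these receptor genes had overlapping groups, and none passed. Among ligands, Bmp7, the BMP known for nephron formation and tubule repair, had 1033, 1082 and 979 in fASht, against 808 and 782 in fWT (0.37, adjusted p = 0.113 from limma). Ccn2 had 15079, 13314 and 17712 in fASht, against 20751 and 20100 in fWT, and so lay lower in each fASht library without passing (log2 fold change -0.42, SE 0.19, adjusted p = 0.249 from limma). Id1 was above in each fASht library, with 940, 1002 and 1088, against 876 and 742 (0.32, adjusted p = 0.200 from limma), and Id2 overlapped (0.19).

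Of the further pathway genes 3 of 78 passed in females, all higher and all targets. They were Junb, a transcription factor that TGF-β and many other stimuli induce (9437 in fASht and 3134 in fWT on average, log2 fold change 1.55), and the collagen genes Col3a1 (49.1 and 10.7, 1.21) and Col1a1. Col1a1 averaged 23.6 in fASht and 3.14 in fWT and reached the filter through fASht alone, so its call is no support, and 2 of the 76 others passed. Immediate early genes, which rise within minutes of a stimulus and include Junb, were higher in 9 of 15 in fASht, with a summed count of 73412 to 126590, against 31834 and 33573 in fWT. Their part in the female values was not tested.

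The male and the female effects were set against each other in 1 fit over all 11 libraries. The difference, male minus female, passed as higher in 12 of 43 members (27.9%) and as lower in 1 (2.33%), against 9.66% higher and 12.1% lower among all 16506 genes. Of the 41 members tested in both sexes, 27 (65.9%) had a positive value in males and a negative one in females, against 25.7% of all genes, 13 of 15 podocyte, 13 of 15 endothelial and 8 of 10 mesangial markers. The 12 were 6 receptor genes (Tgfbr2, Tgfbr3, Eng, Acvrl1, Bmpr1a and Bmpr2), 2 SMAD genes (Smad2 and Smad5), Ltbp1, Ltbp4, Bmp1 and Ccn2, and the 1 lower was Id2, with adjusted p from 0.0150 to 0.0467 (limma). Ccn2 had a difference of 2.36 (SE 0.33, adjusted p = 0.0150 from limma), formed of 1.94 in males and -0.42 in females, and 1.70 (adjusted p = 0.425 from limma) with proximal tubule content as a covariate. Ltbp4 had 1.39 (SE 0.30, adjusted p = 0.0216 from limma), from 0.49 in males and -0.91 in females. Eng, Ltbp1 and Acvrl1 had 1.28, 1.32 and 1.15. Id2 had -1.23 (SE 0.37, adjusted p = 0.0403 from limma), from -1.04 and 0.19. Fst and Grem1, tested for the difference but not in females alone, did not pass (adjusted p = 0.125 and 0.788 from limma).

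These differences rest on female as well as male libraries. Without fWT replicate 1, the library with the highest endothelial sum, fWT was left with 1 library. The median difference in that fit was 0.47 over the members and -0.03 over all genes. The count of members past the test was 4 without mWT replicate 1, 1 without mWT replicate 3, and 5 and 4 without mAS replicates 2 and 3. It was 7, 7 and 3 without fASht replicates 1, 2 and 3, and 20 without mWT replicate 2 or mAS replicate 1. Of all genes 2.07% were higher and 1.48% lower without mWT replicate 1, and 1.25% and 1.02% without mWT replicate 3. The shares were 3.99% and 5.48%, and 3.41% and 4.66%, without mAS replicates 2 and 3. Without fASht replicates 1, 2 and 3 they were 4.29% and 5.59%, 3.47% and 3.18%, and 2.29% and 2.37%. They were 13.4% and 16.1% without mWT replicate 2, and 10.6% and 15.2% without mAS replicate 1. Ccn2 passed in 10 of these 11 fits. Podocyte and endothelial markers moved the same way as the 12 members, with 10 and 7 of 15 past the test for the difference (medians 1.32 and 1.29), against a median of 0.55 over the 43 members. Proximal tubule markers moved the other way, with 19 of 20 lower (median -1.95). With their content as a covariate Id2 was 0.079, in a fit in which 0 of all 16506 genes passed (limma). The part of tubule content in the difference of Id2 was not tested. With the libraries centred on endothelial markers 1 member, Ccn2, was higher and 11 were lower, against 0.0909% and 55.3% of all genes, and with podocyte markers Ccn2 was higher and 18 were lower, against 0.206% and 78%. The median of all genes moved to -1.17 under both, and the members stayed 0.56 above it.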

How the data were processed

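The members and gene lists used here were chosen with earlier results of these data known. Per the labels and the study's methods, the authors checked paired-end reads of stranded polyA libraries with FastQC, trimmed them with cutadapt, aligned them to mm10 with STAR and assigned them to genes in Partek. Tool versions are not given in the sources used here. The deposited values are a signal, counts per gene that the authors scaled by TMM, in 1 table per sample. Whole multiples of 1 step made up 78.7% to 81.6% of low values, within a tolerance of 0.01, so whole reads were not recovered and no count model was used. In units of 1e6, column totals were 14.2 to 23.2 and the read pairs estimated from the steps 14.5 to 20.3; precision comes from the spread between libraries. Col4a5 was lower in AS in every library of each sex.

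Female WT sample 3 equals sample 1 (20971 genes above 0, relative tolerance 1e-06) and was left out. Genes at 0.5 CPM or more in at least 3 libraries of a comparison entered two-sided limma tests (version 3.58.1, R 4.3.3) of log2(value + pseudocount), with the prior variance following the mean and Benjamini-Hochberg adjustment at 0.05. The pseudocount was 1 CPM of the mean column total (17.6 in males, 17.8 in females). Fold changes are on that scale, which understates low genes. The fits were mAS against mWT, fASht against fWT, and the difference between these effects. The fits were tested on simulated data. Nothing in the labels says how the mice of a group were related, and p-values measure the spread between these samples.

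Members past a test in either sex or in the difference are given by library, topped up to 2 per role by mean level. Library values of Tgfb1, Tgfb2, Tgfbr1, Smad3, Bmp7 and Id3 are given outside this rule. Of each role of the further pathway genes up to 4 past the test with the largest fold change are named. Alternatives were 2 other pseudocounts, no filter or 2 CPM, equal column totals, median-of-ratios and quantile scaling, centring on the mean log2 of endothelial or podocyte markers, proximal tubule content (mean log2 of its markers) as a covariate, a replicate block, both sexes in 1 fit, the study's threshold, the repeated library kept and leaving out each library. Levels per kb use the merged exons of GENCODE M21 on GRCm38, the build of the files. Python 3.11.15 (pandas 2.3.3, numpy 2.4.6, matplotlib 3.10.9) was used for tables and plots.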

Additional observations from a re-analysis of the deposited data

Results flagged for a closer look

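The male and the heterozygous female effect of AS differed past the test of the difference itself in 13 members, with the libraries as deposited. Each value below is the male log2 fold change minus the female one, from limma with Benjamini-Hochberg adjustment over 16506 genes. Among the receptor genes it was 0.91 for Tgfbr2, 0.86 for Tgfbr3, 1.28 for Eng, 1.15 for Acvrl1, 0.76 for Bmpr1a and 0.98 for Bmpr2. Among the SMAD genes it was 0.72 for Smad2 and 0.64 for Smad5. Ltbp1 had 1.32, Ltbp4 1.39 and Bmp1 1.05, and the target gene Ccn2 had 2.36. Id2 had -1.23, the one difference in the other direction. With proximal tubule content as a covariate 0 members and 0 of all genes passed (limma). Without fWT replicate 1, which left 1 fWT library, the median difference was 0.47 over the members and -0.03 over all genes. Centring on endothelial markers left 0.13 for Eng, 0.16 for Ltbp1 and 0.23 for Ltbp4 and turned 8 others negative. The differences of the podocyte and endothelial markers had medians of 1.32 and 1.29. The sexes may have been scaled apart, but a factor shared by all libraries of 1 sex drops out of the difference, apart from the pseudocount. The genotype is Col4a5-/- in males and Col4a5+/- in females. The female groups also differ in the code in the headers of their values. Sex, genotype and this code cannot be told apart in the difference.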

How the results depend on the processing

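In males 12 members passed, and the count stayed within 1.5 times that with the 2 other pseudocounts, the filter at 2 CPM, median-of-ratios scaling, both sexes in 1 fit, the study's threshold and centring on endothelial markers, where 1 was higher and 12 lower. It was 6 with no filter (3 higher and 3 lower), against 8.36% and 8.78% of all genes. It was 20 with quantile normalization (17 and 3), against 19.4% and 16.7%. It was 30 with equal column totals (28 higher) and 26 with centring on podocyte markers (25 lower), whose shares of all genes are given above. The cause of these moves was not tested. With proximal tubule content as a covariate the count was 0, as for all genes, and 0 of the further pathway genes passed, where 41 did before. Equal column totals moved the median of all genes to 0.36 in males. Leaving out 1 library gave 1 to 17 members and 21 to 41 further pathway genes. The 17 were without mWT replicate 2 (14 higher and 3 lower), against 17.9% and 19.4% of all genes. The members were 1 without mWT replicate 1, 3 without mWT replicate 3, 4 without mAS replicate 2 and 3 without mAS replicate 3. The further pathway genes were 22 without mWT replicate 1 and 21 without mWT replicate 3 or mAS replicate 3. The shares of all genes in the fits named are given above.

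In females the 1 call, Ltbp4, became 0 with no filter, equal column totals, quantile normalization, either centring and both sexes in 1 fit. The count was 11 with the tubule covariate (2 higher, 9 lower), where 8.2% of all genes were higher and 7.44% lower. It was 10 with the repeated library kept (1 and 9), against 8.22% and 7.59% of all genes. At the study's threshold it was 4, all lower, against 6.5% higher and 2.12% lower of all genes. Without each fASht library in turn it was 0, where at most 0.215% of all genes were higher and 0.0717% lower. Leaving out fWT replicate 1 or 2 left 1 fWT library. The median log2 fold change of the members was then -0.14 or -0.36, against -0.01 or -0.02 over all genes. For the difference 13 members passed, and 5 with no filter, against 2.98% higher and 2.68% lower of all genes. It was 0 with the covariate, as for all genes, and 22 at the study's threshold, against 12.9% and 18% of all genes. Without 1 male or fASht library it was 1 to 20, from 1 without mWT replicate 3 to 20 without mWT replicate 2 or mAS replicate 1.

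Same-numbered mAS and mWT libraries deviated from their group means with correlations of 0.05, 0.52 and 0.06, and mAS replicate 1 correlated best with mWT replicate 3 (0.49), so the numbers were not taken as pairs. A replicate block gave 20 members in males (15 higher, 5 lower), against 18.8% and 21.6% of all genes. It gave 1 in females, where 4.08% of all genes were higher and 1.49% lower. For the difference it gave 14, against 7.99% and 13% of all genes.

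Over 26 member results and their alternatives, 337 of 542 values kept direction and call, 170 kept direction alone and 35 turned. With the tubule covariate in males Tgfbr2 turned to -0.11, Eng to -0.29, Acvrl1 to -0.40, Ltbp1 to -0.22, Bmp1 to -0.11, Id1 to -0.50, Bmpr1b to 0.35 and Id2 to 0.17, and for the difference Id2 to 0.079. With centring on endothelial and on podocyte markers the male values became -0.13 and -0.22 for Tgfbr2, -0.071 and -0.161 for Acvrl1, -0.45 and -0.54 for Ltbp3, and -0.19 and -0.28 for Id1, and with podocyte markers -0.075 for Tgfb3 and -0.055 for Ltbp1. For the difference these centrings gave -0.25 and -0.25 for Tgfbr2, -0.29 and -0.29 for Tgfbr3, -0.009 and -0.010 for Acvrl1, -0.40 and -0.40 for Bmpr1a, -0.18 and -0.18 for Bmpr2, -0.44 and -0.44 for Smad2, -0.52 and -0.52 for Smad5, and -0.11 and -0.11 for Bmp1.

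With 2 or 3 libraries a group, small changes of single genes are beyond this design, and an adjusted p above the threshold does not show that a gene was unchanged. Values near the pseudocount, such as those of Fst, Grem1, Inhba and Ltbp2, rest on few reads.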

Other observations

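Of the immediate early genes 4 of 15 were lower in mAS than in mWT and 9 of 15 were higher in fASht than in fWT, and 12 of 15 passed the test for the difference between the sexes, all with the male effect the lower one (median -2.36). Lymphocyte markers, near the detection limit in glomeruli, summed to 205 to 350 in mAS, against 87.3 to 221 in mWT, with 3 of 9 tested higher. Of 8 macrophage markers tested in males 1 was higher and 1 lower, and of 7 parietal epithelial markers 5 were lower in mAS.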
